A study of Mus musculus with 2 samples.

Results

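Liver microRNA genes of hepatocytes and endoderm were followed in small RNA libraries from mouse embryonic liver: Mir122, the Mir192 and Mir194-2 pair, the Mir215 and Mir194-1 pair, and Mir802. They were chosen by symbol, without regard to their values, and all 6 were found among the 1973 microRNA genes counted. The samples were livers of healthy B6NCrl embryos at 11.5 days, with no treatment named in the labels, pooled across males and females. Biological replicate 1 was a pool from 109 embryos; for replicate 2 the labels say only that embryos were pooled. RNA of fewer than 30 nucleotides was sequenced, and 3344673 and 1584499 reads were assigned to microRNA genes on their own strand in replicates 1 and 2. Both libraries form 1 group, so levels and the spread between pools can be described, and no condition can be compared. Whole liver was used, so fewer cells of a type and less RNA per cell cannot be told apart.

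A microRNA gene is transcribed into a longer RNA from which a hairpin is cut, and the hairpin is then diced into short arms called 5p and 3p. One arm usually guides a silencing complex to messenger RNAs that pair with its seed, bases 2 to 8. miR-122 is the hallmark microRNA of hepatocytes, is driven by liver-enriched transcription factors such as Hnf4a, and is known for its part in cholesterol and lipid metabolism. miR-192, miR-194 and miR-215 are known from liver, gut and kidney epithelium, where Hnf4a is among the factors that drive their genes. miR-802 is known from liver and pancreas.

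The mature sequences show which of these genes act as copies of each other and which reads can be told apart. RefSeq sequences on GRCm38.p6 (mm10) matched 5 of the 6 genes by symbol; for Mir122 only the counts are given. Written 5′ to 3′ with the seed in capitals, the 5p arms of the paired loci and of Mir802 are the following.
miR-192-5p: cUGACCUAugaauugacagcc
miR-215-5p: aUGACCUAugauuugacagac
miR-194-5p: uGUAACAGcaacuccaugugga
miR-802-5p: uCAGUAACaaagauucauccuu

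miR-192-5p and miR-215-5p carry the same seed, so they form 1 seed family across both loci. They differ at 3 of 21 bases, counted from 1 at the 5′ end and with the miR-192-5p base first: C1A, A12U and C20A. Among the 1679 mature names in the RefSeq table no other has this seed. miR-194-5p is the same in all 22 bases whether it comes from Mir194-1 or Mir194-2. The seed of miR-802-5p is shared by no other mature name in the table.

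The hairpins of the Mir194 genes, with the longest run they share in capitals, show where a read can be placed.
Mir194-1: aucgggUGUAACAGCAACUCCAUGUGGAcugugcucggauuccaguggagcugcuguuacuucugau
Mir194-2: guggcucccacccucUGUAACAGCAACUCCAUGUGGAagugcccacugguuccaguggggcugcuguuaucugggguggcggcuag

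The shared run of 22 bases is exactly miR-194-5p. A read that lies wholly inside it matches both genes. The deposited files keep reads that map to several places in a class of their own. It held 22.0% and 22.6% of all reads in replicates 1 and 2. That these reads are assigned to no gene was inferred from the name of the class. On that reading, the counts of Mir194-1 and Mir194-2 leave out any read placed in that class, and each can be too low. Their 3p arms are shown because they can be told apart, here again with the seed in capitals.
miR-194-1-3p: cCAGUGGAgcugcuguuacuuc
miR-194-2-3p: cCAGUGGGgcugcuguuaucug

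From miR-194-1-3p to miR-194-2-3p the differences are A8G, C19U, U20C and C22G, counted from the 5′ end. The first of these lies in the seed. The other hairpins shared shorter runs with any other hairpin in the table: 12 bases at most for Mir192, and 11 bases for Mir215 and for Mir802.

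Both paired loci have a like layout, with the Mir194 gene first and its partner close behind on the plus strand. Mir194-2 (ENSMUSG00000065582.1) lies on chromosome 19 at 6264643 to 6264728 and Mir192 (ENSMUSG00000065523.1) at 6264844 to 6264932, 115 bases apart and outside any other gene of GENCODE M21. Mir194-1 (ENSMUSG00000065581.1) lies on chromosome 1 at 185313319 to 185313385, in an intron of the antisense RNA 2010103J01Rik. Mir215 (ENSMUSG00000065562.1) follows after 195 bases, at 185313581 to 185313692, in an exon of the same RNA. That RNA runs opposite to Iars2, and both hairpins lie within an Iars2 intron. Mir802 (ENSMUSG00000076457.1) lies on chromosome 16 at 93369720 to 93369816, outside any other M21 gene. Mir122 (ENSMUSG00000065402.1) spans positions 65248861 to 65248926 of chromosome 18, inside an exonic part of AC157910.3, a long noncoding transcript.

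**Figure D1:**
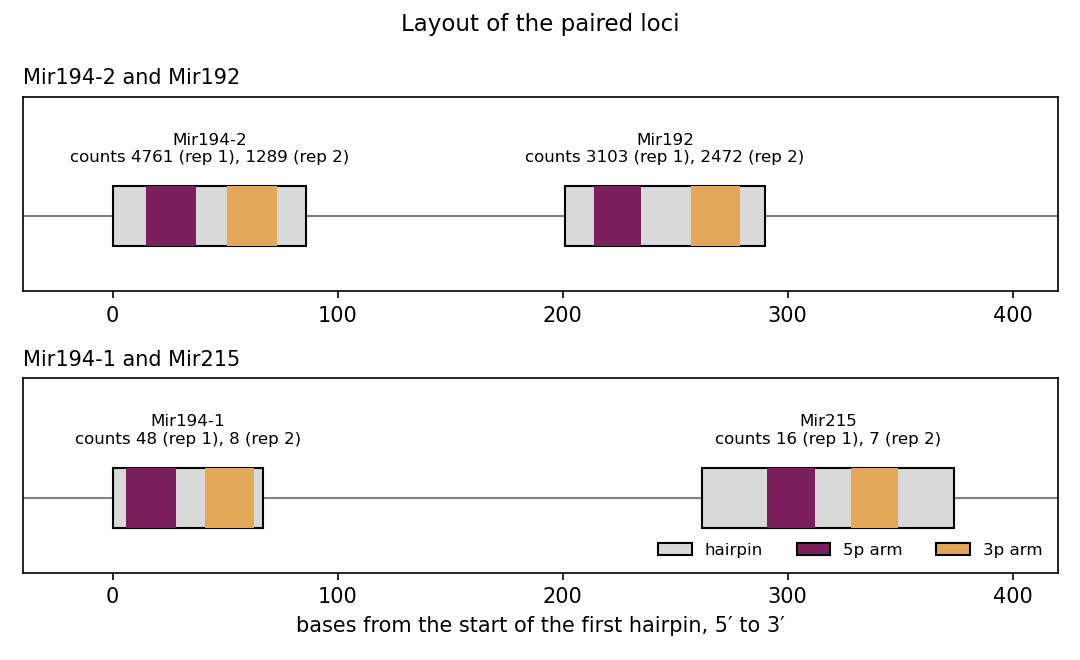
Layout of the paired loci to scale, with the x axis in bases from the start of the first hairpin. Grey boxes are hairpins, purple and yellow boxes the 5p and 3p arms, and the counts of both replicates stand above each hairpin; Mir194-2 and Mir192 hold at least 1289 counts in each library, Mir194-1 and Mir215 at most 48.

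The levels of placed reads fell into 3 tiers. Mir122 lay near the top of all microRNA genes, and Mir192 and Mir194-2 in the middle. Mir194-1, Mir215 and Mir802 had at most 48 counts in either library. For both Mir194 genes, reads that lie wholly in their shared run can be left out. Levels are counts per 1000000 assigned counts (CPM), with exact Clopper-Pearson 95% intervals that cover counting error only. No length scaling was applied, since each gene gives RNAs of nearly the same length. Of the 6 genes, 3 reached at least 10 counts in both libraries (Mir122, Mir192 and Mir194-2), the rule for calling a gene detected; 347 of the 1973 counted genes did so.

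Mir122 stood at 30679 CPM in replicate 1 (30494 to 30864) and reached 34487 CPM in replicate 2 (34203 to 34772), a mean of 32583 ± 2693 (SD, n = 2). It ranked 5 and 4 among all genes in replicates 1 and 2. Of the counts held by the 6 genes together, 92.8% and 93.5% were its own.

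Mir192 had 928 CPM in replicate 1 (895 to 961) against 1560 CPM in replicate 2 (1499 to 1623), with a mean of 1244 ± 447 (SD, n = 2). Replicate 2 was the higher library, and the gene's rank was 118 and 91 in replicates 1 and 2. Mir194-2 had 1423 CPM in replicate 1 (1383 to 1464) against 814 CPM in replicate 2 (770 to 859), with a mean of 1118 ± 431 (SD, n = 2). Here replicate 1 was the higher library, and the ranks were 97 and 120. Within each library the intervals of Mir192 and Mir194-2 did not overlap, and their order was opposite in the 2 pools. Across the pools the ranges of both genes overlapped, so no order held in both. The levels of Mir194-2 count only reads that could be placed, so its order against Mir192 holds for those reads only.

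Mir194-1, the second source of miR-194-5p, had 48 counts in replicate 1 and 8 in replicate 2, which is 14.4 CPM (10.6 to 19.0) and 5.05 CPM (2.18 to 9.95). Mir215, the seed partner of Mir192, had 16 and 7 counts, which is 4.78 CPM (2.73 to 7.77) and 4.42 CPM (1.78 to 9.10). Mir802 had 9 and 3 counts, which is 2.69 CPM (1.23 to 5.11) and 1.89 CPM (0.390 to 5.53). In replicate 2 Mir802 was at 3 counts, the floor used here for a gene with no reads. In replicate 2 the intervals of these 3 genes overlapped one another, so their order there was not detectable at this depth. In replicate 1 Mir194-1 lay above both others, and Mir215 and Mir802 overlapped.

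**Figure D2:**
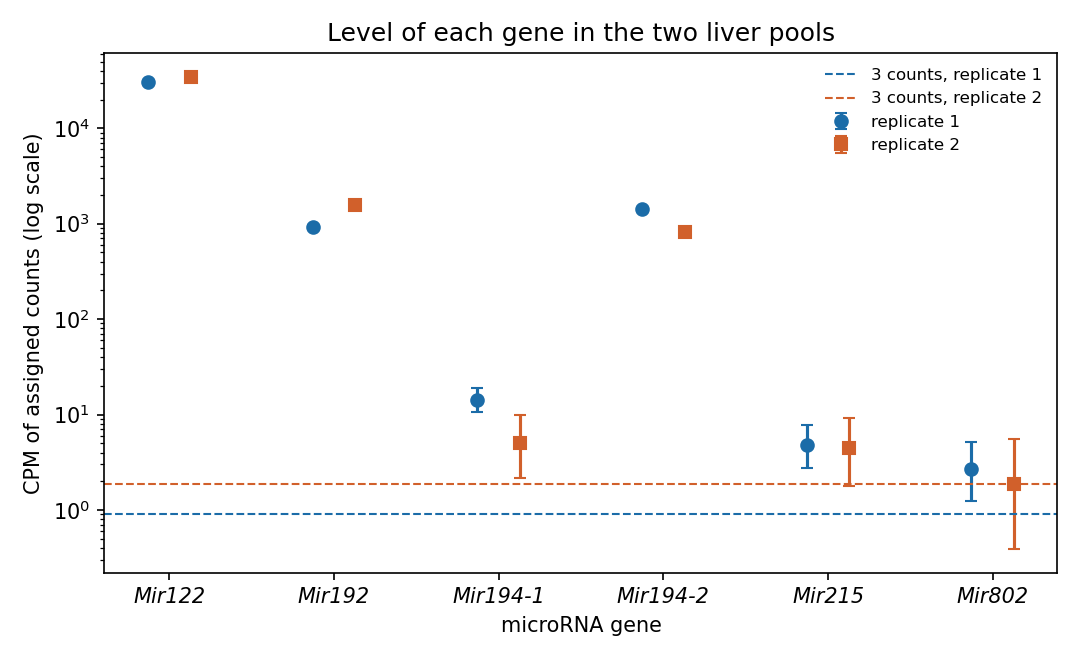
CPM of each gene on a log axis in replicate 1 (blue circles) and replicate 2 (orange squares), with exact 95% counting intervals; dashed lines mark 3 counts in each library. Mir122 lies at 30679 and 34487 CPM, Mir192 and Mir194-2 swap their order, and Mir802 touches the line of 3 counts in replicate 2.

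The 6 genes together held 3.31% of assigned counts in replicate 1 (3.29 to 3.32) and 3.69% in replicate 2 (3.66 to 3.72), a mean of 3.50 ± 0.270% (SD, n = 2). The 5 genes other than Mir122 held 0.237% and 0.238%. Mir122 exceeded Mir192 by 33.1 times in replicate 1 (31.9 to 34.3) and 22.1 times in replicate 2 (21.2 to 23.0). It exceeded Mir194-2 by 21.6 times (20.9 to 22.2) and 42.4 times (40.1 to 44.8).

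By mean CPM, Mir122 ranked 4, directly below the imprinted Mir335 and above Mir30e. Mir30e stood above Mir122 in replicate 1, at 37299 CPM, and below it in replicate 2, at 19786 CPM. Mir192 ranked 101, between Mir872 at 1344 ± 325 and Mir374b at 1239 ± 83.4 CPM. Mir194-2 ranked 105, between Mir455 at 1130 ± 34.9 and Mir542 at 1105 ± 4.59 CPM (SD, n = 2). In each case the mean of the neighbour lay within the SD of Mir192 or Mir194-2. Mir194-1, Mir215 and Mir802 ranked 324, 362 and 429.

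**Figure D3:**
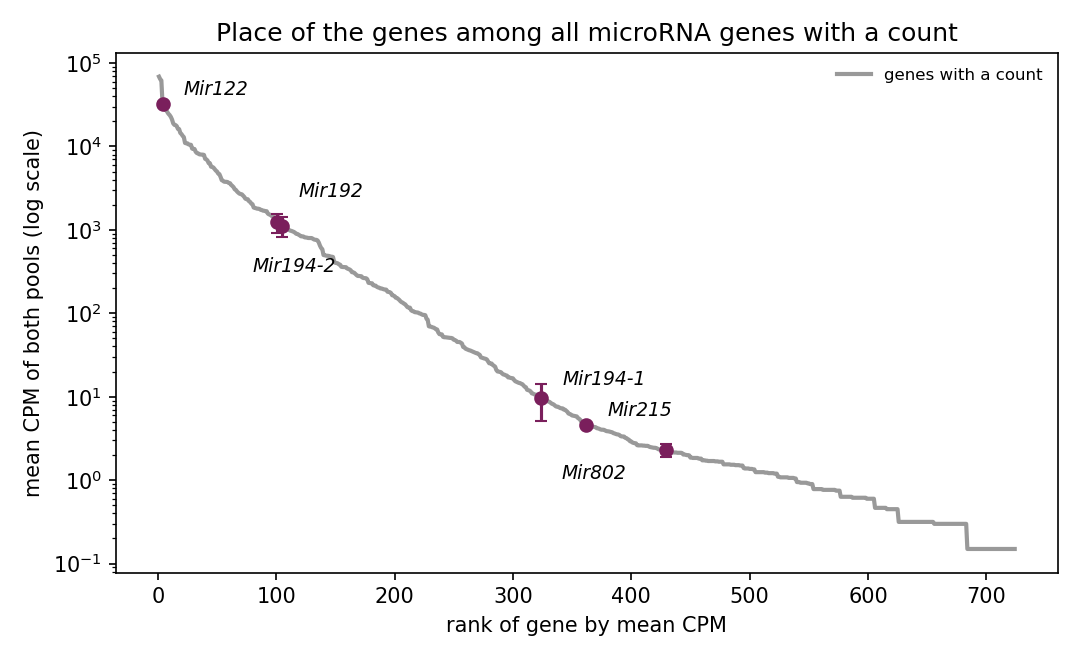
Mean CPM of both pools (log axis) against rank for every microRNA gene with a count in either library. Purple points are the 6 genes, with bars from the lower to the higher library; they stand at ranks 4, 101, 105, 324, 362 and 429.

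Genes with the most similar levels over the 2 libraries were sought by the summed absolute difference of log2 CPM in both. For Mir122 these were Mir99a and Mir322, at 0.50 and 0.53. For Mir192 they were Mir872 and the hypoxia-linked Mir210, at 0.28 and 0.42. For Mir194-2 they were Gm23935, at 0.17, and Mir34c, a microRNA of the p53 pathway, at 0.29. Gm23935 had 1288 and 800 CPM in replicates 1 and 2, and Mir34c 1199 and 841 CPM. With 2 libraries this likeness describes levels and carries no test.

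The hairpins on chromosome 19 gave far more counts than those on chromosome 1. Mir192 and Mir194-2 summed to 7864 counts in replicate 1 and 3761 in replicate 2, against 64 and 15 for Mir215 and Mir194-1, which is 123 and 251 times as many. Within the seed family, Mir192 exceeded Mir215 by 194 times in replicate 1 (119 to 340) and 353 times in replicate 2 (171 to 879). Mir194-2 exceeded Mir194-1 by 99.2 times (74.7 to 135) and 161 times (81.5 to 374). The intervals of the 2 libraries overlapped for both ratios. The Mir194 ratio compares only reads that could be placed, as the shared run above shows.

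In reads that could be placed, the Mir192 and Mir194-2 pair had the opposite balance in the 2 pools. Mir192 had 3103 counts against 4761 for Mir194-2 in replicate 1, a ratio of 0.652 (0.623 to 0.682). In replicate 2 it had 2472 against 1289, a ratio of 1.92 (1.79 to 2.05). The ratio was thus 2.94 times higher in replicate 2 (exact conditional 95% interval 2.71 to 3.19, counting error only), and the order of the 2 genes was opposite. The sum of their placed reads hardly moved, at 2351 and 2374 CPM in replicates 1 and 2. A ratio within 1 library does not depend on how libraries are scaled. It does depend on which reads could be placed. Mir194-2 can lose reads that lie wholly in the run shared by both Mir194 hairpins, and Mir192 holds no such run. The loss was not measured in either library, so the balance of all reads from the pair cannot be told. Reads left out from the shared run could come from either Mir194 gene. Whether Mir192 lost reads that match elsewhere in the genome was not checked. The order in each replicate therefore holds for placed reads only.

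For Mir215 over Mir194-1 the ratio was 0.333 in replicate 1 (0.177 to 0.597) and 0.875 in replicate 2 (0.270 to 2.76). Its change of 2.63 times had an interval from 0.683 to 9.72, so no change was detectable at this depth. Both Mir194 genes had the lower CPM in replicate 2.

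How often neighbouring microRNA genes part in this way was described over all adjacent pairs on 1 strand, at most 1000 bases apart and with counts averaging 100 or more in each gene. This description was chosen after the values of Mir192 and Mir194-2 were seen. Of 54 such pairs, the median pair differed by 0.49 in log2 ratio between the libraries, which is 1.40-fold, and Mir194-2 and Mir192 differed by 1.56, the largest value. The next were Mir501 and Mir362 with 1.09 and the erythroid pair Mir144 and Mir451a with 1.02. Opposite signs were common, in 24 of the 54 pairs. Mir194-2 entered here too with only the reads that could be placed, and the other genes were not checked for this limit. Some genes entered more than 1 pair, so the 54 pairs are not independent of each other.

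**Figure D4:**
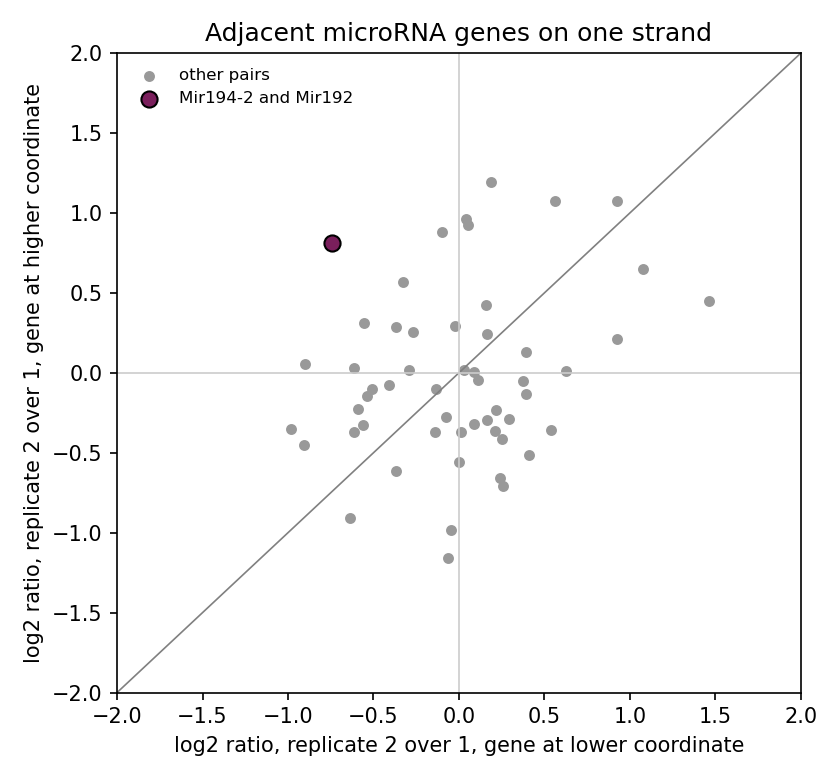
Log2 ratio of replicate 2 over replicate 1 for each of 54 adjacent pairs of microRNA genes, the gene at the lower coordinate on the x axis and the other on the y axis. The line marks equal ratios; Mir194-2 and Mir192, in purple, lie at -0.74 and 0.81, farther from it than the other pairs.

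Each gene was then set against the differences between the libraries over all genes. An exact two-sided binomial test of counts, scaled by TMM (trimmed mean of M values) effective library sizes, with Benjamini-Hochberg adjustment over the 454 genes with at least 10 summed counts, compared these 2 libraries and not conditions. Called genes had an adjusted p under 0.05 and at least a 2-fold difference. All 6 genes were tested and 1 was called, against 7.27% of all tested genes. This was Mir194-1, lower in replicate 2 with a log2 ratio of -1.37 (adjusted p = 0.0132, exact binomial test); 2.42% of tested genes were called in that direction and 4.85% in the other, where 0 of the 6 genes were called. The split of called genes moved with the scaling, from 22 higher and 11 lower in replicate 2 to 20 and 14 with DESeq2 size factors, 19 and 15 with total counts, and 19 and 17 with TMM factors from all counted genes; Mir194-1 was called under each. Mir194-1 was not detected by the rule of at least 10 counts in both libraries. Its call rests on 48 and 8 counts, which leave out reads that could not be placed. It was lost when genes with few counts were not filtered out (adjusted p = 0.0570, exact binomial test) and in edgeR's exact test, run with the biological coefficient of variation set to 0.2 (adjusted p = 0.405).

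Mir192 and Mir194-2 differed by less than 2-fold, with log2 ratios of 0.81 and -0.74. Mir122 had 0.23, Mir215 0.0021 and Mir802 -0.30. At any fold, 4 of the 6 genes had an adjusted p under 0.05, and so did 49.1% of all tested genes, since the test knows only counting noise. The adjusted p of the exact binomial test was 1.4e-92 for Mir192 and 1.5e-65 for Mir194-2. With the coefficient of variation set to 0.2, edgeR's exact test gave adjusted p = 0.423 for Mir192 and 0.491 for Mir194-2. In that test 0 of the 6 genes and 0.22% of all tested genes were called; at an unadjusted p under 0.05 the counts were 1 of 6 (Mir194-1) and 51 of 454. Among the 257 genes whose counts averaged 100 or more, the median fold between libraries was 1.28, and 86.0% had a smaller difference than Mir192, 82.1% a smaller one than Mir194-2 and 34.6% a smaller one than Mir122.

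**Figure D5:**
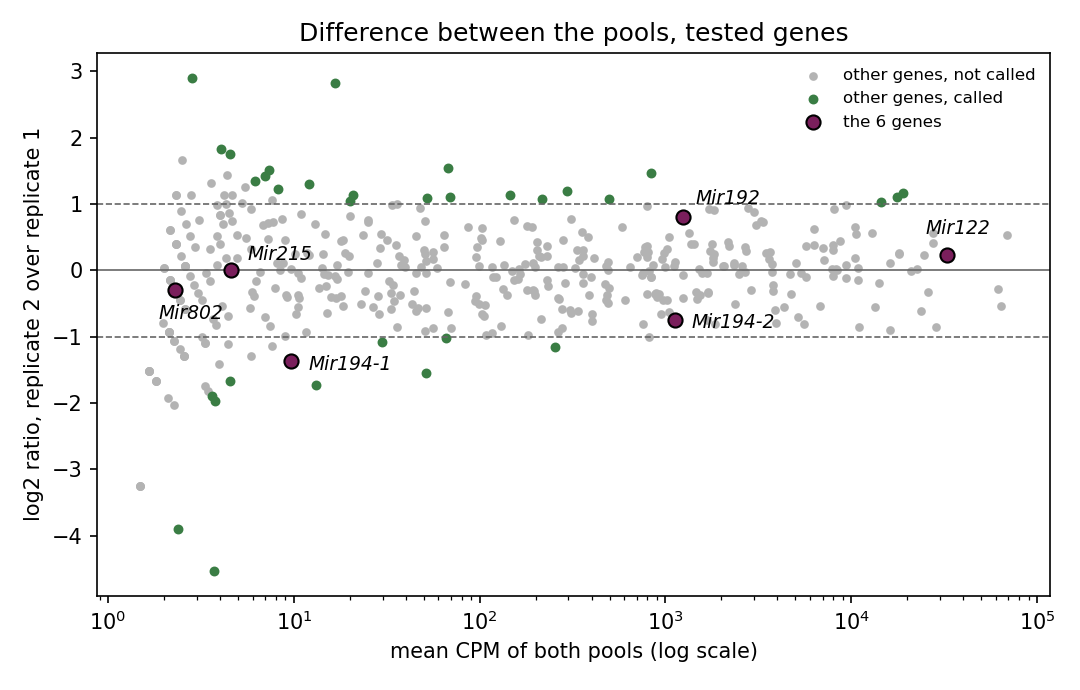
Log2 ratio of replicate 2 over replicate 1 (TMM scaled) against mean CPM (log axis) for 454 tested genes, with dashed lines at 2-fold. Green points were called and grey points were not; of the 6 purple points only Mir194-1 lies beyond the lower dashed line.

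The label of hepatocyte microRNAs was set beside a list of 10 other genes taken as liver-enriched. The list was chosen with earlier results of these data known. No other tissue was sampled, so the enrichment of these genes in liver was not tested. All 10 were counted and 8 were detected, together 1.20% of counts in replicate 1 and 1.45% in replicate 2. Of the 10, 1 was called higher in replicate 2 and 0 lower: Mir33, in the cholesterol regulator Srebf2, with 35.6 and 99.1 CPM. Over all tested genes 4.85% were called higher and 2.42% lower, so the list is not set apart by this count. The leading genes were Mir22 at 7005 ± 960 CPM and Mir101b at 3359 ± 1079 CPM (SD, n = 2). Mir148a, abundant in adult liver, had 1725 and 1226 CPM in replicates 1 and 2. It was above both Mir192 and Mir194-2 in replicate 1 and between them in replicate 2.

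Markers of other cell types bear on which tissue was sampled. The list of other endoderm derivatives (epithelium and pancreas) held 0.685% and 0.731% of counts in replicates 1 and 2 with 8 of 10 genes detected, led by the islet gene Mir375 and the epithelial Mir429. The endothelial Mir126a held 5.74% and 8.01%, and the mesenchymal list 2.25% and 3.34% with 6 of 6 detected, led by Mir143 and Mir214. The erythroid list held 0.833% and 1.13% with 3 of 3 counted genes detected, led by Mir451a and Mir144. The leukocyte list held 1.05% and 0.821% with 5 of 6 detected, led by Mir223 and Mir342. Striated muscle held 0.0714% and 0.0626% with 3 of 6 detected, led by the myosin intron genes Mir208b and Mir208a. The neural list held 0.0314% and 0.0226% with 3 of 8 detected, led by Mir128-1 and Mir138-2. Mir133a-1, Mir133a-2, Mir1a-1, Mir124a-1, Mir124a-3 and Mir9-2, defining genes of muscle and brain, were at 0 in both libraries; each has near-identical copies elsewhere, so its reads can fall in the class that maps to several places. In replicate 2 the endothelial, mesenchymal, erythroid and epithelium and pancreas shares were higher and the leukocyte, striated muscle and neural shares lower. Genes of 1 list did not all move alike. Of the leukocyte leaders, Mir223 had 4934 and 5087 CPM in replicates 1 and 2, and Mir342 had 5077 and 2819 CPM. In striated muscle Mir208b had 331 and 324 CPM, Mir208a 272 and 157 CPM, and Mir206 112 and 145 CPM. The mesenchymal share was higher through Mir143, with 11472 and 23595 CPM; without it, a sum taken after the values were seen, the other 5 genes held 1.11% and 0.976%. The part of cell makeup in the differences between the pools was not tested.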

How the data were processed

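The authors deposited raw counts, whole numbers of reads for each microRNA gene, from 1 library of each of 2 liver pools. Per the text deposited with the files, the authors aligned to mm10 and counted over GENCODE M4; aligner, counter and trimming are not given in the sources used here. The layout of the columns (either strand, same strand, opposite strand, after 4 summary classes that name no gene) was read from the values. What each summary class holds was read from its name only. Summary classes stayed out of library sizes: assigned same-strand reads were 26.2% and 29.0% of 12750572 and 5471247 reads in replicates 1 and 2, and a count of 1 equals 0.299 and 0.631 CPM.

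CPM were computed from the same-strand column. Of the 1973 counted genes, 1894 matched GENCODE M21 by Ensembl identifier. TMM factors came from edgeR 4.0.16 on genes with at least 10 summed counts, DESeq2 1.42.0 gave alternative size factors (R 4.3.3), and tests used Python 3.11.15, scipy 1.17.1, numpy 2.4.6 and pandas 2.3.3, with 0.5 added to counts for log2 ratios. The binomial procedure was run on simulated counts with set fold differences and counting noise only. Those counts held no other variation between pools, so the run does not show how the calls fare with such variation. The p-values rest on no measured spread between pools. The exact binomial test assumes counting noise only. For edgeR's exact test the biological coefficient of variation was set and not estimated from the libraries. Named genes were the 6 genes, their neighbours by mean CPM, the 2 most similar detected genes of each detected one, the 2 leading detected genes of each marker list, and genes sharing a seed. The 6 genes were chosen by symbol. The other named genes and the marker lists were chosen with earlier results of these data known. Others were named after their values were seen: Mir33, Mir148a, the adjacent pairs and the genes at 0.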

Additional observations from a re-analysis of the deposited data

How the results depend on the processing

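The share of the 6 genes was 3.17% in the column without regard to strand and 0.967% of all reads in the file, both by construction of the denominator, and 3.31 to 3.69% when either replicate was left out; TMM and DESeq2 scaling moved it by less than its SD. Lowering detection to 1 count in both libraries took the detected genes from 3 to 6. The ratio of Mir192 to Mir194-2 ran from 0.652 to 1.92, and that of Mir215 to Mir194-1 from 0.333 to 0.875, when a replicate was left out. Called genes numbered 33, 15 from 100 summed counts (fewer genes tested) and 1 in edgeR's exact test with an assumed coefficient of variation of 0.2. Of the 6 genes, 0 were called in place of 1 with no filter, from 100 summed counts, where Mir194-1 was not tested, and in edgeR's test. The log2 ratio of Mir215 lay near 0 and turned sign, from 0.0021 to -0.0565 with DESeq2 size factors, -0.0597 with total counts, -0.0416 with 0.1 added, -0.0065 without regard to strand, -0.0718 with TMM factors from all counted genes and -0.0525 in edgeR's test; the cause was not tested. The TMM factors from all counted genes were chosen after seeing the data. Leaving out a library ends the test between libraries, so it was not run there. No paired analysis was possible because both libraries belong to 1 group.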

Other observations

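Reads on the strand opposite to the 6 genes stayed below the floor of 3 counts: Mir122 had 2 and Mir194-1 had 1 in replicate 1, and replicate 2 had 0 for each of the 6. Among mature names outside the 6 genes, miR-6926-5p and miR-7055-5p share the seed of miR-194-2-3p. Mir6926 had 2 counts in replicate 1 and 1 in replicate 2, both under the floor.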
